A study of Macaca mulatta with 24 samples.

Results

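Nutrient and organic solute carriers are membrane proteins of the solute carrier (SLC) families that move sugars, amino acids, monocarboxylates, amines, nucleosides, vitamins and organic ions. The members were the genes whose array symbol begins with SLC1A, SLC2A, SLC3A, SLC5A, SLC6A, SLC7A, SLC15A, SLC16A, SLC22A, SLC28A, SLC29A, SLC36A, SLC38A or SLC43A. The array carried 139 such probes for 93 of the 16094 named genes. Each gene was represented by its brightest probe over the 24 arrays. By the solute they are known to carry, 34 members were amino acid carriers, 15 sugar carriers, 12 organic ion or vitamin carriers, 11 monocarboxylate carriers, 11 amine or osmolyte carriers, 5 nucleoside or nucleobase carriers and 4 peptide carriers. The remaining member, SLC7A6OS, shares the letters of a carrier family in its symbol but is not a carrier. Of the 93 members, 88 were bright enough to be tested, and 57 were well above background on every array. The 5 that were too dim on the arrays were SLC2A7, SLC6A17, SLC15A5, SLC16A9 and SLC22A8. Of a list of 37 known carriers of gut epithelium, 8 had no matching symbol and were not analysed here (SLC1A5, SLC2A3, SLC3A1, SLC5A8, SLC7A5, SLC7A7, SLC22A3 and SLC22A4).

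Colon RNA of 24 young-adult male rhesus macaques was measured on single-colour arrays, 1 array per animal. Irradiated animals had been given cobalt-60 gamma rays over the whole body once, at 6.7 Gy or 7.4 Gy, and the tissue was whole colon, with its epithelium, immune cells, stroma and muscle together. The groups were 4 sham-irradiated controls, 4 animals on day 4 and 4 on day 7 after each dose, and 2 animals on day 12 after each dose. The controls carry the dose 0 and day 4 in their labels and served as the baseline of every day, so all comparisons with control share the same 4 arrays. For the last time point the label of each sample, day 12, was used, since a protocol text names a later one.

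Levels are given as the log2 signal relative to the 75th percentile of all transcript signals on the same array, so a value of 0 lies at that percentile and a difference of 1 is a 2-fold change. Levels of different genes come from different probes and were not compared with each other. Between 66.7% and 85.0% of the transcript spots were well above background on an array. A gene is called where its level changed 2-fold or more and the p from limma, adjusted over all probes, was under 0.05. All controls lay in position 1 of their slides and all 7.4 Gy day 4 arrays in position 2. The 6.7 Gy day 4 arrays were divided between these positions, and the day 7 and day 12 arrays lay in positions 3 and 4. Day 7 and day 12 therefore cannot be told apart from array position in any comparison with control or with day 4. From their own arrays, 7.4 Gy day 4 and control cannot be told apart from position either. A position block there rests on the 6.7 Gy day 4 arrays, replicates 1 and 2 in position 1 and replicates 3 and 4 in position 2. Those replicates 1 and 2 were scanned on scan day 2, and replicates 3 and 4 on scan day 1. All 7.4 Gy day 4 and all day 12 arrays were scanned on scan day 2. Markers of colon epithelium were present in every group, and the sum of their levels ran from 1028 to 1420 times the 75th percentile in the controls, from 444.4 to 680.6 on day 4 after 6.7 Gy and from 257.6 to 559.0 on day 4 after 7.4 Gy. On day 4, 9 of these 18 markers were called lower at 6.7 Gy and 11 of 18 at 7.4 Gy, and 0 higher. Over all named genes 2.05% were called lower at 6.7 Gy and 4.01% at 7.4 Gy. Because the tissue was measured in bulk, fewer cells of a type and less RNA per cell cannot be told apart, and the part of cell composition in the carrier changes was not tested.

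Carriers set which solutes a cell can take up or release. Some let a solute run down its own gradient, and others couple it to sodium, protons or a second solute, so that the sodium pump and accessory proteins at the membrane bear on their work. The colon epithelium is known for taking up the short-chain fatty acids that bacteria make, with butyrate as a main fuel, while most dietary sugar, amino acid and peptide uptake belongs to the small intestine.

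On day 4, 4 carriers were called higher and 5 lower at 6.7 Gy, against 2.38% of all named genes called higher and 2.05% called lower. At 7.4 Gy, 5 were higher and 4 lower, against 4.38% and 4.01% of all named genes. The 9 calls at each dose were 10.2% of the members tested, and the median log2 change of all 88 members was -0.02 at 6.7 Gy and 0.09 at 7.4 Gy, beside -0.04 and -0.01 over all named genes. In all, 11 members were called at 1 dose or the other, and 7 at both: SLC16A1, SLC6A4 and SLC22A5 lower, and SLC28A3, SLC5A1, SLC7A11 and SLC1A1 higher. The comparisons of the doses with control share the control arrays. A block for array position left 4 carriers higher and 2 lower after the smaller dose, where 2.9% and 2% of all named genes were called. After the larger dose it left 7 higher and 1 lower, beside 6.31% and 3.58% of all named genes. Scaling to the spike-in spots gave 5 higher and 2 lower after the smaller dose (4.64% and 1.2% of all named genes), and 16 higher and 3 lower after the larger (8.82% and 2.36%). That scaling moved the median change of all named genes to 0.18 and 0.27.

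**Figure D1:**
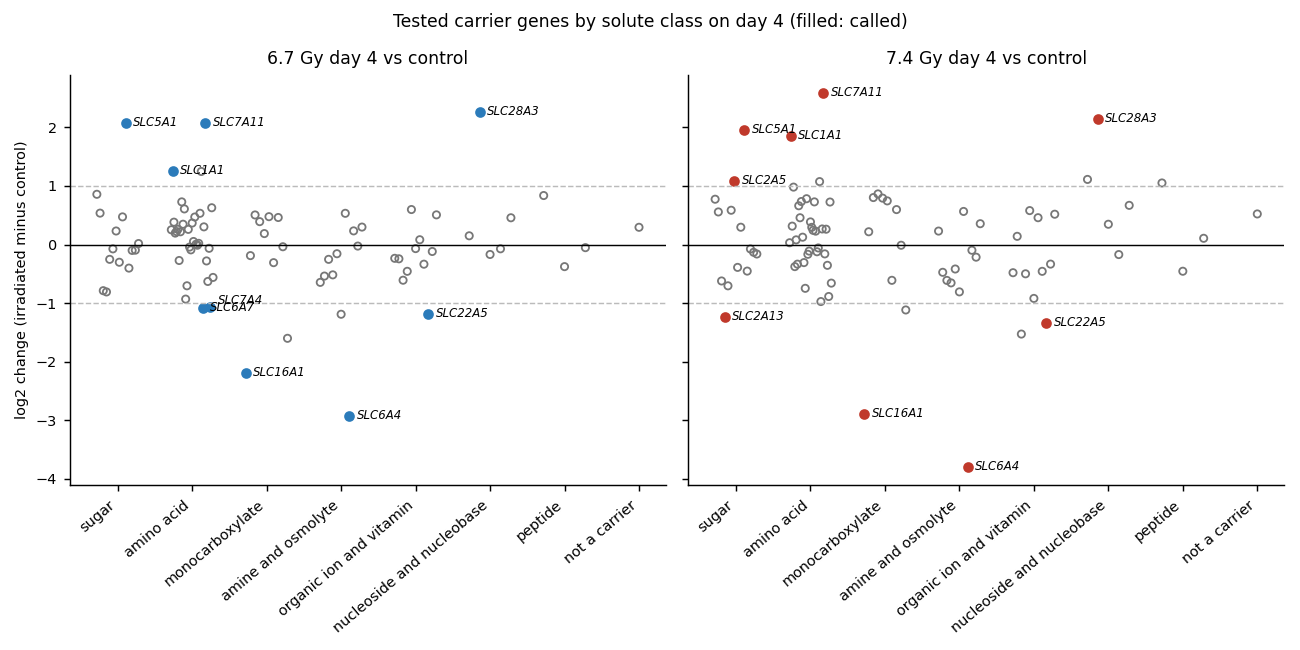
Each point is a tested carrier gene, placed by solute class on the x axis and by its log2 change on day 4 (irradiated minus control) on the y axis, at 6.7 Gy on the left and 7.4 Gy on the right. Filled points were called, dashed lines mark 2-fold, and most members of every class lie between the dashed lines.

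The plot of changes by solute class shows called genes in several classes, with few calls in each. Over all named genes 4.42% were called at 6.7 Gy and 8.39% at 7.4 Gy. At 6.7 Gy, 4 of 33 amino acid carriers, 1 of 14 sugar carriers and 1 of 10 monocarboxylate carriers were called. The calls were 1 of 11 for amine or osmolyte carriers, 1 of 11 for organic ion or vitamin carriers, 1 of 5 for nucleoside carriers and 0 of 3 for peptide carriers. At 7.4 Gy, 3 of 14 sugar carriers, 2 of 33 amino acid carriers, 1 of 10 monocarboxylate carriers, 1 of 11 amine or osmolyte carriers, 1 of 11 organic ion or vitamin carriers, 1 of 5 nucleoside carriers and 0 of 3 peptide carriers were called. At 6.7 Gy, 76 of the 88 members changed by less than 2-fold, and at 7.4 Gy 74 did.

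SLC16A1 encodes MCT1, a proton-coupled carrier that brings butyrate, lactate and ketone bodies into colon epithelial cells. Its level was 2.44, 2.51, 2.42 and 2.68 in the controls. It was 0.23, -0.16, 0.80 and 0.39 on day 4 after 6.7 Gy and -0.93, 0.40, -0.67 and -0.29 on day 4 after 7.4 Gy. The 4 controls lay within a narrow band and all 8 irradiated arrays lay far below it. SLC16A1 was 4.59-fold lower after 6.7 Gy and 7.40-fold lower after 7.4 Gy. The log2 change was -2.20 ± 0.33 (SE of the fit, limma adjusted p = 0.000699) and -2.89 ± 0.33 (limma adjusted p = 2.01e-05), respectively. The gene's other probe gave log2 changes of -2.53 and -3.45. Both calls were kept under all alternatives tried, and the change was -2.48 (limma adjusted p = 0.00266) at 6.7 Gy and -3.45 (limma adjusted p = 0.00277) at 7.4 Gy with array position as a block. Within the 2 scan days the 6.7 Gy difference was -2.52 and -1.88.

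SLC16A3 encodes MCT4, the carrier by which glycolytic cells release lactate. Its level was 4.65, 4.03, 4.52 and 4.53 in the controls, 4.77, 4.91, 5.05 and 4.91 on day 4 after 6.7 Gy, and 5.19, 4.76, 5.43 and 5.33 on day 4 after 7.4 Gy. All 8 irradiated arrays stood above all controls, and the mean change was under 2-fold. On the log2 scale the change was 0.48 ± 0.18 (limma adjusted p = 0.0991) at 6.7 Gy and 0.75 ± 0.18 (limma adjusted p = 0.00738) at 7.4 Gy, so the gene was not called. With spike-in scaling it was called higher at 7.4 Gy. Of the other monocarboxylate carriers, none was called on day 4 at either dose.

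SLC5A1 encodes SGLT1, which draws glucose and galactose into the cell together with sodium and is best known from the small intestine. Its level was -3.32, -4.00, -3.55 and -4.36 in the controls. It was -1.45, -2.79, -1.33 and -1.35 on day 4 after 6.7 Gy and -1.65, -1.87, -2.07 and -1.82 on day 4 after 7.4 Gy. Every irradiated array was above every control, with replicate 2 of 6.7 Gy day 4 nearest to them. The level was 4.22-fold higher after 6.7 Gy and 3.86-fold higher after 7.4 Gy. The log2 change was 2.08 ± 0.41 (limma adjusted p = 0.00463) and 1.95 ± 0.41 (limma adjusted p = 0.00274), respectively. The other SLC5A1 probe rose by less and was not called, at 1.11 (limma adjusted p = 0.0892) and 0.91 (limma adjusted p = 0.123). In the fit with a position block the change at 7.4 Gy was 1.17 and was not called (limma adjusted p = 0.330), while the 6.7 Gy call was kept at 1.69 (limma adjusted p = 0.0496). With normexp background correction, which compresses signals near background, both calls were kept at smaller changes of 1.26 (limma adjusted p = 0.0167) and 1.11 (limma adjusted p = 0.0184).

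SLC2A5 encodes GLUT5, the fructose carrier. Its level was -0.44, -0.32, -0.74 and -1.25 in the controls, -1.04, 0.35, -0.56 and -0.58 on day 4 after 6.7 Gy, and 0.03, -0.07, 0.42 and 1.22 on day 4 after 7.4 Gy. The 7.4 Gy arrays all exceeded the controls, whereas the 6.7 Gy arrays overlapped them. The increase at 7.4 Gy was 2.13-fold (1.09 ± 0.36, limma adjusted p = 0.0372), and the change at 6.7 Gy was 0.23 ± 0.36 (limma adjusted p = 0.734). The call was lost under 12 of 25 alternatives, among them the removal of control replicate 3 (1.07, limma adjusted p = 0.0686), control replicate 4 (0.90, limma adjusted p = 0.117), replicate 3 of 7.4 Gy day 4 (1.08, limma adjusted p = 0.0708) and replicate 4 of 7.4 Gy day 4 (0.82, limma adjusted p = 0.131).

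SLC2A13 encodes HMIT, a proton-coupled myo-inositol carrier. Its level was -3.13, -2.89, -2.26 and -2.40 in the controls, -2.73, -3.70, -3.77 and -3.71 on day 4 after 6.7 Gy, and -4.09, -3.57, -4.15 and -3.84 on day 4 after 7.4 Gy. At 7.4 Gy all arrays were below the controls, 2.37-fold on average (-1.24 ± 0.34, limma adjusted p = 0.0157). At 6.7 Gy replicate 1 lay among the controls, and the change was -0.81 ± 0.34 (limma adjusted p = 0.139). The 7.4 Gy change was -0.72 (limma adjusted p = 0.507) with array position as a block and -0.97 (limma adjusted p = 0.0277) with spike-in scaling, both short of a call.

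SLC2A1, the basal glucose carrier GLUT1, was not called on day 4. Its level was -1.32, -2.78, -2.90 and -2.31 in the controls, -1.64, -1.0, -1.73 and -1.51 after 6.7 Gy and -1.56, -1.65, -1.34 and -1.67 after 7.4 Gy. Control replicate 1 stood with the irradiated arrays, apart from the other 3 controls. The change was 0.86 ± 0.32 (limma adjusted p = 0.0954) at 6.7 Gy and 0.77 ± 0.32 (limma adjusted p = 0.0963) at 7.4 Gy. Without that array the gene was called at both doses, at 1.19 (limma adjusted p = 0.0225) and 1.11 (limma adjusted p = 0.0153), and with spike-in scaling it was called at 1.08 (limma adjusted p = 0.0454) and 1.05 (limma adjusted p = 0.0321). The sugar carriers SLC2A2 and SLC2A10 were not called on day 4 either, the hepatic and intestinal glucose carrier SLC2A2 at -0.25 ± 0.50 and -0.70 ± 0.50 with 1 control array and 0 irradiated arrays above background, and SLC2A10 at 0.54 ± 0.33 and 0.56 ± 0.33.

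SLC7A11 encodes xCT, the subunit of the cystine and glutamate exchanger that supplies cystine for glutathione. Its level was -6.7, -5.78, -5.54 and -5.50 in the controls, where 1 of 4 arrays was above background. It was -3.62, -3.42, -4.28 and -3.89 on day 4 after 6.7 Gy and -2.19, -4.20, -2.92 and -3.89 on day 4 after 7.4 Gy. All 8 irradiated arrays were above background and above all controls. The measured log2 change, against controls mostly near background, was 2.08 ± 0.40 (limma adjusted p = 0.00421) and 2.58 ± 0.40 (limma adjusted p = 0.000288), respectively. With normexp the changes were 0.49 (limma adjusted p = 0.243) and 0.86 (limma adjusted p = 0.0290) and neither was called. Both calls were kept with a position block, at 2.36 (limma adjusted p = 0.0101) and 3.15 (limma adjusted p = 0.0122). SLC3A2, the heavy chain with which xCT and other exchangers pair, changed by 0.37 ± 0.19 (limma adjusted p = 0.228) and 0.39 ± 0.19 (limma adjusted p = 0.158). At 7.4 Gy a position block led to a call of SLC3A2 as higher.

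SLC1A1 encodes EAAT3, an epithelial carrier of glutamate and aspartate that also takes up cysteine. Its level was -4.88, -4.82, -5.29 and -5.56 in the controls, where 1 of 4 arrays was above background. It was -4.05, -4.06, -3.78 and -3.67 on day 4 after 6.7 Gy and -3.69, -4.01, -1.70 and -3.74 on day 4 after 7.4 Gy. The irradiated arrays all exceeded the controls, and replicate 3 of 7.4 Gy day 4 stood far above its group. The measured log2 change, again against controls mostly near background, was 1.25 ± 0.36 (limma adjusted p = 0.0351) and 1.85 ± 0.36 (limma adjusted p = 0.00165), respectively. The 6.7 Gy call was lost in 7 of the 8 fits that left out 1 array of the comparison, with log2 changes between 1.11 and 1.33 and limma adjusted p between 0.0510 and 0.0944. Neither call was kept with a position block, at 1.09 (limma adjusted p = 0.160) and 1.53 (limma adjusted p = 0.149). With normexp the changes were 0.22 (limma adjusted p = 0.583) and 0.63 (limma adjusted p = 0.123).

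**Figure D2:**
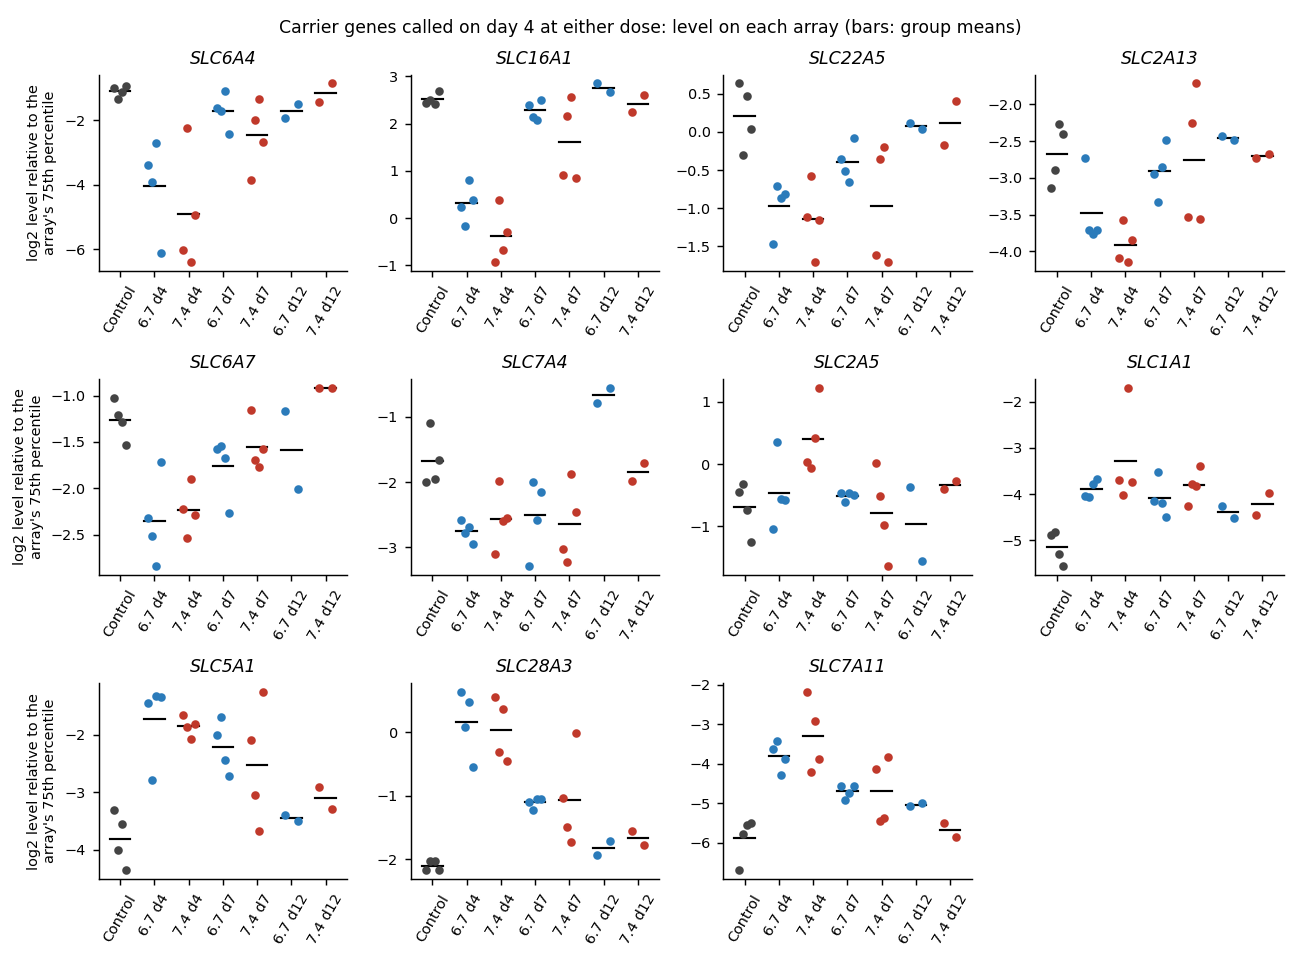
The level of the 11 carrier genes called on day 4 at either dose is plotted for each array, as the log2 signal relative to the array's 75th percentile, by dose in Gy and day (d). Points are animals and bars are group means; SLC16A1, SLC6A4 and SLC22A5 sit below the controls on day 4, SLC28A3, SLC5A1, SLC7A11 and SLC1A1 sit above them, and the day 12 arrays lie nearer to the controls for most of these genes.

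SLC6A7, known as a proline carrier of nerve endings, was lower on day 4. Its level was -1.02, -1.21, -1.28 and -1.53 in the controls, -2.32, -2.52, -2.84 and -1.71 after 6.7 Gy and -2.22, -2.53, -1.90 and -2.29 after 7.4 Gy. All irradiated arrays lay below all controls. The decrease was 2.13-fold at 6.7 Gy (-1.09 ± 0.24, limma adjusted p = 0.00802) and just short of 2-fold at 7.4 Gy (-0.97 ± 0.24, limma adjusted p = 0.00715). Without replicate 3 of 6.7 Gy day 4 the 6.7 Gy change was -0.92 (limma adjusted p = 0.0284) and was not called, and 6 of 26 alternatives in all ended the call.

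SLC7A4 belongs to the family of cationic amino acid carriers, although its own substrate is not settled. Its level was -2.0, -1.09, -1.96 and -1.66 in the controls, -2.58, -2.78, -2.70 and -2.95 after 6.7 Gy and -3.11, -1.99, -2.60 and -2.56 after 7.4 Gy. At 6.7 Gy it was 2.10-fold lower on 4 of 4 arrays (-1.07 ± 0.30, limma adjusted p = 0.0316), and at 7.4 Gy the change was -0.89 ± 0.30 (limma adjusted p = 0.0456), with replicate 2 among the controls. Of 26 alternatives 13 ended the call at 6.7 Gy, among them 6 of the 8 fits that left out 1 array, with changes between -1.13 and -0.88 and limma adjusted p between 0.0519 and 0.0916.

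The other named amino acid carriers were not called on day 4. SLC6A20, an imino acid carrier, had the largest of these changes, 1.25 ± 0.69 at 6.7 Gy (limma adjusted p = 0.263) and 1.07 ± 0.69 at 7.4 Gy (limma adjusted p = 0.288), with control arrays spread from -6.81 to -4.14. SLC7A8, the light chain LAT2 of a basolateral exchanger of neutral amino acids, changed by 0.63 ± 0.29 and 0.73 ± 0.29. SLC7A9, the light chain of the cystine and dibasic amino acid exchanger, changed by -0.56 ± 0.33 and -0.66 ± 0.33. SLC6A14, a carrier of neutral and cationic amino acids, stood at 0.01 ± 0.20 at 6.7 Gy and at 0.73 ± 0.20 at 7.4 Gy (limma adjusted p = 0.0146). The glutamine carriers SLC38A1 and SLC38A2 changed by 0.73 ± 0.26 and 0.61 ± 0.27 at 6.7 Gy and by 0.46 ± 0.26 and 0.13 ± 0.27 at 7.4 Gy. A position block led to a call of SLC38A2 at 6.7 Gy (1.1, limma adjusted p = 0.0209). Spike-in scaling led to calls of SLC7A8 and SLC6A14 as higher at 7.4 Gy. SLC6A19, the main neutral amino acid carrier of the small intestinal brush border, had measured changes of 0.53 ± 0.33 and -0.06 ± 0.33 and was not well above background on any control array. The arginine and lysine carrier SLC7A1, the proton-coupled SLC36A1 and the branched-chain carrier SLC43A1 all changed by at most 0.30 on the log2 scale at both doses.

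SLC6A4 encodes SERT, which clears serotonin and in the gut is made by epithelial cells. Its level was -1.01, -1.34, -1.14 and -0.95 in the controls. It was -3.40, -3.92, -2.72 and -6.10 on day 4 after 6.7 Gy and -6.01, -2.26, -6.39 and -4.95 on day 4 after 7.4 Gy. The controls were close together and the irradiated arrays were widely spread below them, with 3 of 4 at 6.7 Gy and 2 of 4 at 7.4 Gy above background. The measured log2 change was -2.93 ± 0.74 (limma adjusted p = 0.0185) and -3.79 ± 0.74 (limma adjusted p = 0.00169), respectively. With arrays of both doses near background the size of the change was uncertain, and normexp gave -1.87 (limma adjusted p = 0.00342) and -2.18 (limma adjusted p = 0.000319), both called. Without replicate 4 of 6.7 Gy day 4 the change at that dose was -2.24 and missed the threshold (limma adjusted p = 0.0549). Without replicate 2 of 7.4 Gy day 4 the change at 7.4 Gy was -4.67 (limma adjusted p = 9.09e-05). The position block gave changes of -2.55 (limma adjusted p = 0.104) and -3.05 (limma adjusted p = 0.159), and neither was called. SLC6A6 and SLC6A8, which carry taurine and creatine, changed by 0.23 ± 0.17 and -0.03 ± 0.13 at 6.7 Gy and by -0.10 ± 0.17 and -0.22 ± 0.13 at 7.4 Gy. SLC6A12, a betaine and GABA carrier picked after its values were seen, had probes that disagreed on a call. Its brightest probe changed by -0.65 ± 0.27 at 7.4 Gy (limma adjusted p = 0.0943), and its other probes were called at -1.27 (limma adjusted p = 0.0139) and -1.02 (limma adjusted p = 0.0293).

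SLC22A5 encodes OCTN2, the sodium-dependent carnitine carrier. Its level was 0.63, -0.31, 0.47 and 0.04 in the controls, -1.47, -0.72, -0.87 and -0.82 on day 4 after 6.7 Gy, and -1.12, -0.58, -1.70 and -1.15 on day 4 after 7.4 Gy. All 8 irradiated arrays were below all controls. The decrease was 2.26-fold after 6.7 Gy and 2.54-fold after 7.4 Gy. This was a change of -1.18 ± 0.32 (limma adjusted p = 0.0258) and -1.35 ± 0.32 (limma adjusted p = 0.00651), respectively. The 6.7 Gy call was lost without control replicate 1 (-1.04, limma adjusted p = 0.0752), control replicate 3 (-1.09, limma adjusted p = 0.0675) or replicate 1 of 6.7 Gy day 4 (-1.01, limma adjusted p = 0.0795). The changes were larger with a position block, -1.30 (limma adjusted p = 0.0631) and -1.59 (limma adjusted p = 0.0934), and were not called. SLC5A6, the carrier of biotin and pantothenate, changed by 0.51 ± 0.20 and 0.52 ± 0.20 and was not called.

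SLC28A3 encodes CNT3, a concentrative carrier that takes up purine and pyrimidine nucleosides with sodium. Its level was -2.18, -2.03, -2.04 and -2.18 in the controls. It was 0.63, 0.08, 0.47 and -0.54 on day 4 after 6.7 Gy and 0.55, -0.32, 0.36 and -0.45 on day 4 after 7.4 Gy. The controls were close together, and every irradiated array was far above them. The increase was 4.8-fold after 6.7 Gy and 4.41-fold after 7.4 Gy. The log2 change was 2.26 ± 0.30 (limma adjusted p = 0.000344) and 2.14 ± 0.30 (limma adjusted p = 0.000134), respectively. The 6.7 Gy call was kept under all alternatives, and the 7.4 Gy call was lost only when array position and scan day were blocked together (2.46, limma adjusted p = 0.0891). Among the other nucleoside carriers, SLC28A2 had a signal above background in 0 of 4 controls and 3 of 4 animals given 7.4 Gy. Its measured level was -4.87, -7.04, -5.85 and -6.43 in the controls and -4.97, -4.73, -5.09 and -4.95 on day 4 after 7.4 Gy. Control replicate 1 lay among the irradiated arrays. The measured change of 1.11 ± 0.48 did not pass (limma adjusted p = 0.109), but SLC28A2 was called without control replicate 1 (1.5, limma adjusted p = 0.0377) and with spike-in scaling (1.39, limma adjusted p = 0.0376). SLC29A1, the equilibrative carrier ENT1, changed by -0.17 ± 0.22 and 0.35 ± 0.22. SLC15A1, the proton-coupled peptide carrier PEPT1, changed by 0.84 ± 0.55 and 1.05 ± 0.55 and was not called.

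**Figure D3:**
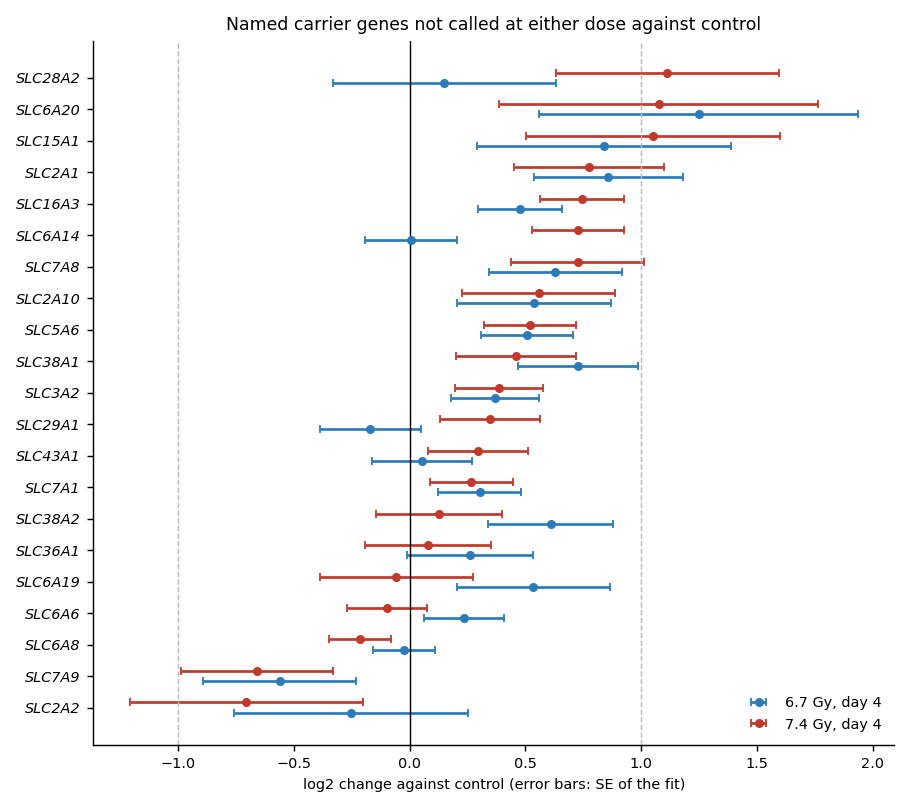
Points give the log2 change on day 4 against control for the 21 named carrier genes that were called at neither dose, with 6.7 Gy in blue and 7.4 Gy in red and bars for the SE of the fit. Dashed lines mark 2-fold; SLC28A2, SLC6A20 and SLC15A1 exceed it at 7.4 Gy with wide bars, and SLC6A8 has the narrowest bars.

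The plot of named genes without a call shows that the largest changes without a call, in SLC28A2, SLC6A20 and SLC15A1, had wide errors. For these genes a change of this size did not pass with 4 animals a group, and a p that misses the threshold does not show that the level stayed the same.

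The doses were compared directly on each day. No carrier was called between 7.4 Gy and 6.7 Gy on day 4, 7 or 12, and 0% of all named genes were in any of these comparisons. With a position block 51 of 11326 named genes were called on day 4, 44 of them higher at 7.4 Gy, and 0 carriers. With 4 or 2 animals a group, a missing call does not show that the levels were equal. On day 4 the difference between doses lay between -0.92 and 0.96 on the log2 scale over the 88 members, with 9 of them at an unadjusted limma p under 0.05, as were 7.68% of all named genes. On day 7 it lay between -0.85 and 0.99 with 2 such members (1.82% of all named genes), and on day 12 between -1.56 and 1.26 with 6 (3.01%). For the genes called at a single dose, the difference between doses was 0.86 ± 0.36 for SLC2A5 (limma adjusted p = 0.748), -0.43 ± 0.34 for SLC2A13 (limma adjusted p = 0.918), 0.12 ± 0.24 for SLC6A7 (limma adjusted p = 0.969) and 0.18 ± 0.30 for SLC7A4 (limma adjusted p = 0.959). For SLC16A1 it was -0.69 ± 0.33, which did not pass either (limma adjusted p = 0.798).

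On day 7 no carrier was called against control. Of all named genes, 0.177% were called higher and 0.256% lower after 6.7 Gy, and after 7.4 Gy the shares were 0.221% and 0.291%. At an unadjusted limma p under 0.05 there were 12 of 88 members at 6.7 Gy and 14 at 7.4 Gy, beside 10.5% and 12.9% of all named genes. The methods' t-test with a 2-fold change gave 4 and 5 members before adjustment, beside 2.21% and 2.12% of all named genes, and 0 after it. SLC16A1 stood at 2.40, 2.14, 2.09 and 2.51 on day 7 after 6.7 Gy, near the controls, and at 0.91, 2.17, 2.55 and 0.86 after 7.4 Gy. At 7.4 Gy, replicates 1 and 4 were still far below the controls and replicates 2 and 3 were near them. SLC22A5 separated the same animals, with -1.61 and -1.71 in replicates 1 and 4 and -0.35 and -0.20 in replicates 2 and 3. SLC2A13 did so as well, with -3.53 and -3.55 against -2.25 and -1.71. SLC5A1 was high in replicates 1 and 4, at -2.10 and -1.26, against -3.05 and -3.67 in the others. SLC28A3 was -1.05 and -0.01 in replicates 1 and 4 and -1.50 and -1.74 in the others, and SLC7A11 was -4.14 and -3.83 against -5.44 and -5.37. The split into replicates 1 and 4 against replicates 2 and 3 was picked after the values were seen. How often it holds over all named genes was not counted. Of the 11 carriers called on day 4, replicates 1 and 4 both lay below replicates 2 and 3 in 4 genes and both above them in 4, by a small margin in SLC6A7. In the other 3 they did not separate, with SLC1A1 at -4.25, -3.79, -3.82 and -3.39, SLC2A5 at 0.02, -0.52, -0.98 and -1.64, and SLC7A4 at -3.03, -3.23, -1.88 and -2.46.

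The largest uncalled difference on day 7 was that of SLC5A1 at 6.7 Gy. Its arrays stood at -2.01, -1.69, -2.44 and -2.71, all above the controls, with a change of 1.59 ± 0.41 (limma adjusted p = 0.0998). SLC28A3 stood at -1.1, -1.22, -1.05 and -1.06 after 6.7 Gy, a change of 1.0 ± 0.30 (limma adjusted p = 0.193). SLC7A11 and SLC1A1 remained above their control means on day 7, by 1.19 ± 0.40 and 1.05 ± 0.36 at 6.7 Gy and by 1.18 ± 0.40 and 1.33 ± 0.36 at 7.4 Gy, and no p of these passed. SLC6A4 was -1.61, -1.72, -1.1 and -2.42 after 6.7 Gy and -3.86, -2.01, -1.35 and -2.67 after 7.4 Gy, with changes of -0.60 ± 0.74 and -1.36 ± 0.74. Without replicate 3 of 7.4 Gy day 7, 2 carriers were called at that dose, SLC5A1 higher (1.67, limma adjusted p = 0.0440) and SLC22A5 lower (-1.43, limma adjusted p = 0.0377).

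SLC15A2 encodes PEPT2, a proton-coupled peptide carrier, and is described after its values were seen because it came nearest to a call on day 7. Its level was -3.79, -3.16, -3.41 and -2.67 in the controls. It was -4.91, -3.75, -4.46 and -4.80 on day 7 after 6.7 Gy and -5.01, -4.20, -4.65 and -5.29 on day 7 after 7.4 Gy. All 4 arrays after 7.4 Gy were below the controls, and replicate 2 after 6.7 Gy lay among them. The change was -1.23 ± 0.35 (limma adjusted p = 0.159) and -1.53 ± 0.35 (limma adjusted p = 0.0547), respectively. At 7.4 Gy it passed without control replicate 1 (-1.71, limma adjusted p = 0.0402) and when only probes above background on at least 12 arrays were fitted (limma adjusted p = 0.0431). On day 4 it stood at -0.38 ± 0.35 and -0.46 ± 0.35 and was not called.

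On day 12, with 2 animals a group, no carrier was called against control. Over all named genes 0% were called higher and 0.0177% lower at 6.7 Gy, and 0.00883% were called in each direction at 7.4 Gy. At each dose 7 members had an unadjusted limma p under 0.05, beside 6.99% and 7.14% of all named genes, and 85 of the 88 were within 2-fold of control. The methods' t-test gave 1 member at 6.7 Gy and 0 at 7.4 Gy before adjustment, where 1.11% and 1.07% of all named genes passed, and 0 after it. SLC16A1 stood at 2.85 and 2.66 after 6.7 Gy and at 2.24 and 2.60 after 7.4 Gy, with changes of 0.24 ± 0.40 and -0.09 ± 0.40. SLC28A3 stood at -1.94 and -1.72 and at -1.56 and -1.77, with changes of 0.27 ± 0.37 and 0.44 ± 0.37. SLC6A4 stood at -1.94 and -1.51 after 6.7 Gy, below all controls, and at -1.43 and -0.87 after 7.4 Gy. SLC7A4 was high on both 6.7 Gy arrays, at -0.79 and -0.55 against a control range of -2.0 to -1.09, but the change of 1.01 ± 0.37 did not pass (limma adjusted p = 0.610). The SE of a day 12 change was larger than that of a day 4 change because each day 12 group held 2 arrays.

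**Figure D4:**
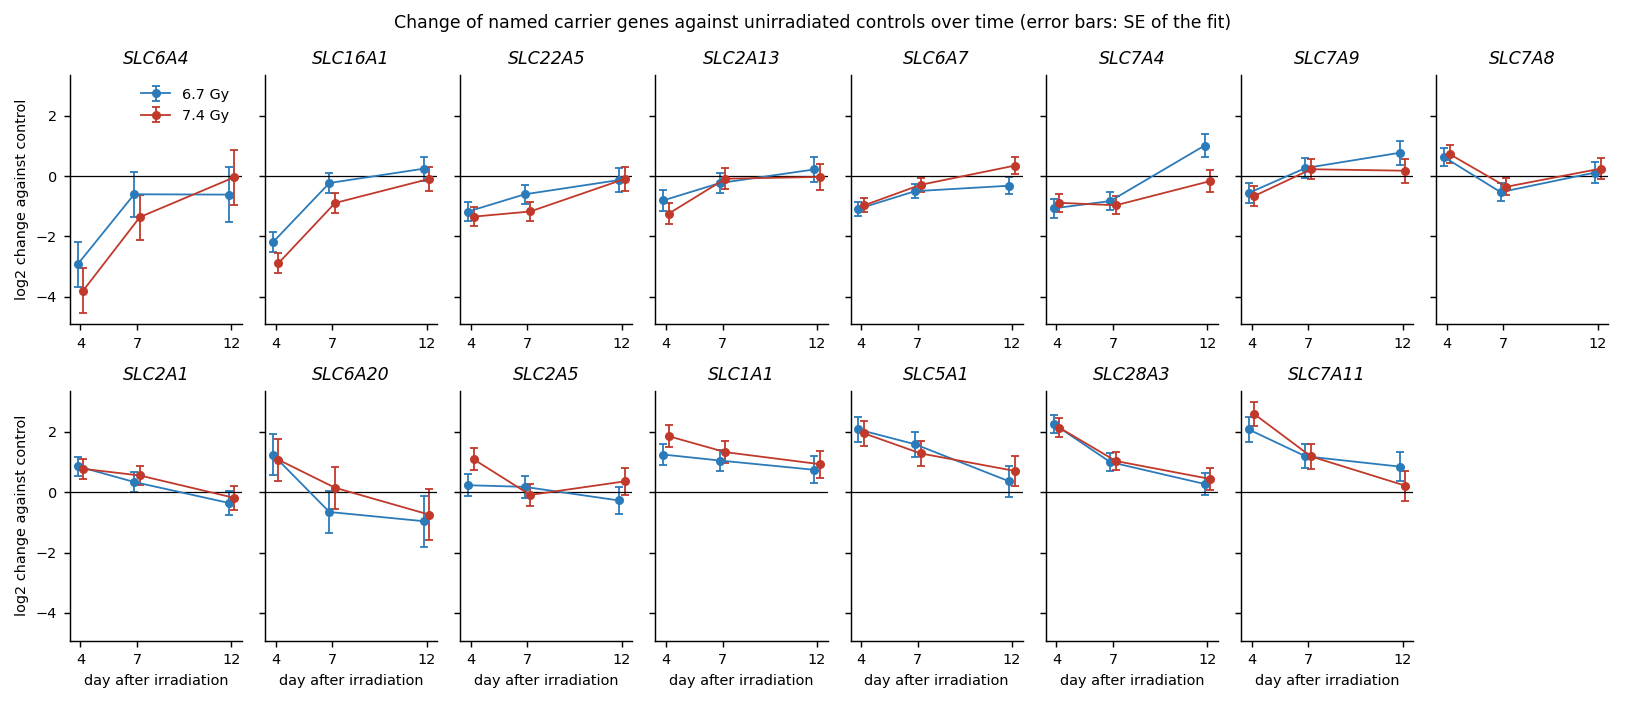
Lines give the log2 change against control on days 4, 7 and 12 for the 15 named carrier genes called in any comparison, with 6.7 Gy in blue and 7.4 Gy in red and bars for the SE of the fit. SLC6A4 and SLC16A1 start lowest on day 4, SLC28A3, SLC7A11 and SLC5A1 start highest, and all of these lie within 1 of 0 on day 12.

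The later days were then set against day 4, over both doses, which does not use the controls. Of the 18 colon epithelium markers, 11 were called higher on day 7 than on day 4 and 11 on day 12, with 0 lower on either day and median changes of 1.30 and 1.32. The shares of all named genes called higher were 2.64% and 3.8%. The part of these markers in the carrier changes from day 4 was not tested. On day 7, 2 carriers were called higher than on day 4 and 4 lower, against 2.64% and 2.49% of all named genes. SLC16A1 was 3.95-fold higher on day 7 (1.98 ± 0.23, limma adjusted p = 2.03e-05), and the lowest of the 8 day 7 arrays, at 0.86, exceeded the highest of the 8 day 4 arrays, at 0.80. SLC6A4 was 5.19-fold higher (2.38 ± 0.53, limma adjusted p = 0.00288), with arrays that overlapped. Lower on day 7 were SLC28A3 (-1.19 ± 0.21, limma adjusted p = 0.000638), SLC7A11 (-1.14 ± 0.28, limma adjusted p = 0.00637), SLC7A8 (-1.12 ± 0.20, limma adjusted p = 0.000637) and SLC6A20 (-1.42 ± 0.49, limma adjusted p = 0.0379). The arrays of these 4 overlapped between the days. With normexp the day 7 calls of SLC7A11 (-0.45, limma adjusted p = 0.0897) and SLC6A20 (-0.37, limma adjusted p = 0.131) were lost. SLC7A11 was also not called without replicate 1 of 7.4 Gy day 4 (-0.96, limma adjusted p = 0.0144), and SLC6A20 was not called in 10 of the 16 fits that left out 1 array, with limma adjusted p between 0.0533 and 0.0869.

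For SLC7A8 the level was -0.29, -0.61, 0.53 and -0.46 in the controls, and on day 4 it was 0.12, 1.1, 0.78 and -0.32 after 6.7 Gy and 0.63, 0.94, 0.13 and 0.37 after 7.4 Gy. On day 7 it was -0.71, -0.48, -1.21 and -0.56 after 6.7 Gy and -0.15, -0.61, -0.65 and -0.85 after 7.4 Gy. Of the 8 day 4 arrays 4 stood above all controls, of the 8 day 7 arrays 4 stood below all controls, and the others overlapped them. No difference from control passed on either day in the fit used for the calls. SLC3A2, the heavy chain with which this light chain pairs, changed from day 4 to day 7 by -0.74 ± 0.13 (limma adjusted p = 0.000657), under the 2-fold limit, and its 8 day 7 arrays lay below all day 4 arrays and all controls. The 2 dimmer SLC7A8 probes did not pass.

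On day 12, 7 carriers were called higher than on day 4 and 7 lower, against 3.8% and 3.95% of all named genes. The 14 calls were 15.9% of the members tested. SLC6A4 was 8.18-fold higher (3.03 ± 0.65, limma adjusted p = 0.00240) and SLC16A1 6.14-fold higher (2.62 ± 0.28, limma adjusted p = 1.38e-05). SLC7A4 was 2.64-fold higher (1.40 ± 0.26, limma adjusted p = 0.000976). SLC22A5 rose by 1.15 ± 0.28 (limma adjusted p = 0.00585) and SLC2A13 by 1.12 ± 0.30 (limma adjusted p = 0.0105). In each of these 5 genes all 4 day 12 arrays were above all 8 day 4 arrays. The nearest arrays almost met in SLC7A4, at -1.989 on day 12 and -1.990 on day 4. They did so too in SLC2A13, at -2.723 and -2.727. How often arrays of these days separate over all named genes was not counted. SLC7A9 was called as well, at 1.08 ± 0.29 (limma adjusted p = 0.00997), and lost the call without replicate 2 of 6.7 Gy day 4 (0.99, limma adjusted p = 0.0192), replicate 4 of 7.4 Gy day 4 (0.96, limma adjusted p = 0.0178), replicate 2 of 6.7 Gy day 12 (0.89, limma adjusted p = 0.0675) or replicate 1 of 7.4 Gy day 12 (0.99, limma adjusted p = 0.04999). SLC6A7 rose by 1.04 ± 0.20 (limma adjusted p = 0.00127) and fell under 2-fold in 3 of the 12 fits without 1 array, at 0.83 to 0.99.

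Among the carriers lower on day 12 than on day 4, SLC28A3 changed by -1.85 ± 0.26 (limma adjusted p = 0.000104), SLC7A11 by -1.80 ± 0.35 (limma adjusted p = 0.00119) and SLC5A1 by -1.48 ± 0.35 (limma adjusted p = 0.00531). All day 12 arrays of these 3 genes lay below all day 4 arrays, with the nearest arrays of SLC5A1 at -2.91 on day 12 and -2.79 on day 4. With normexp the call of SLC28A3 was kept, and those of SLC7A11 (-0.23, limma adjusted p = 0.407) and SLC5A1 (-0.71, limma adjusted p = 0.0307) were lost. SLC2A1 changed by -1.09 ± 0.28 (limma adjusted p = 0.00863), with day 12 arrays at -2.95, -2.41, -2.58 and -2.45, and missed the call without replicate 1 of 6.7 Gy day 12 (-0.95, limma adjusted p = 0.0544) and with normexp (-0.46, limma adjusted p = 0.0810). SLC6A20 changed by -2.01 ± 0.60 (limma adjusted p = 0.0193), and its day 12 arrays, at -6.12, -6.16, -7.01 and -4.84, were above background on 2 of 4. With normexp no change was left (-0.0037, limma adjusted p = 0.990). The call was also lost without replicate 1 of 6.7 Gy day 12 (-2.02, limma adjusted p = 0.0592), replicate 2 of 6.7 Gy day 12 (-2.0, limma adjusted p = 0.0579) or replicate 1 of 7.4 Gy day 12 (-1.47, limma adjusted p = 0.136). The other 2 carriers called lower, named here after their values were seen, were SLC16A7 at -1.04 and SLC1A3 at -1.37.

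Genes whose products work with the carriers were examined by list. On day 4, 2.38% of all named genes were called higher and 2.05% lower at 6.7 Gy. At 7.4 Gy the shares were 4.38% and 4.01%. Among partner proteins and scaffolds, 1 of 11 tested was called lower on day 4 after 6.7 Gy and 2 were after 7.4 Gy, with 0 called higher. BSG, basigin, the chaperone that brings MCT1 and MCT4 to the membrane, changed by -1.35 ± 0.21 at 7.4 Gy (limma adjusted p = 0.000348) and by -0.85 ± 0.21 at 6.7 Gy, under the 2-fold limit. SLC9A3R1, the scaffold NHERF1, changed by -1.18 ± 0.27 (limma adjusted p = 0.0113) and -1.33 ± 0.27 (limma adjusted p = 0.00235). EMB, embigin, another chaperone of monocarboxylate carriers that was named after its values were seen, was called lower on day 7 after 7.4 Gy (-1.07, limma adjusted p = 0.0193). The list medians were -0.12 and -0.17.

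Enzymes of butyrate and ketone metabolism, the route taken by what MCT1 brings in, were called lower in 1 of 7 at 6.7 Gy and 3 of 7 at 7.4 Gy on day 4, with 0 higher. Their median change was -0.43 and -0.91, while 2.05% and 4.01% of all named genes were called lower. HADH, an enzyme of fatty acid oxidation, changed by -1.14 ± 0.25 (limma adjusted p = 0.00800) and -1.93 ± 0.25 (limma adjusted p = 5.01e-05). ACADS, which acts on short-chain acyl-CoA, changed by -1.62 ± 0.23 at 7.4 Gy (limma adjusted p = 0.000136). ACSS2, which turns acetate into acetyl-CoA, changed by -1.29 ± 0.23 at 7.4 Gy (limma adjusted p = 0.000779). On days 7 and 12 no gene of this list was called against control at either dose.

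In the list of genes of the amino acid response, which cells switch on when amino acids run short, 5 of 14 were called higher at each dose on day 4 and 0 lower, and the medians were 0.15 and 0.55. The supply of amino acids in the tissue was not measured, and the cause of these calls was not tested. The share of all named genes called higher was 2.38% at 6.7 Gy and 4.38% at 7.4 Gy. CHAC1, which degrades glutathione, rose by 1.49 ± 0.25 (limma adjusted p = 0.00192) and 2.12 ± 0.25 (limma adjusted p = 3.03e-05). PSAT1, of serine synthesis, rose by 1.39 ± 0.41 (limma adjusted p = 0.0389) and 1.68 ± 0.41 (limma adjusted p = 0.00803). TRIB3, a pseudokinase of this response, rose by 1.14 ± 0.35 (limma adjusted p = 0.0433) and 1.64 ± 0.35 (limma adjusted p = 0.00297). No gene of the list was called on days 7 or 12 against control.

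Enzymes of hexose metabolism moved in both directions on day 4, with 2 of 22 up and 1 down after 6.7 Gy and 3 up and 2 down after 7.4 Gy. For all named genes the shares were 2.38% up and 2.05% down after 6.7 Gy, and 4.38% and 4.01% after 7.4 Gy. PCK1, an enzyme of gluconeogenesis, changed by -4.04 ± 0.98 (limma adjusted p = 0.0145) and -5.72 ± 0.98 (limma adjusted p = 0.000580). PDK4, the kinase that shuts off pyruvate dehydrogenase, rose by 1.30 ± 0.31 (limma adjusted p = 0.0144) and 1.92 ± 0.31 (limma adjusted p = 0.000413). LDHB, a lactate dehydrogenase subunit, rose by 1.14 ± 0.28 (limma adjusted p = 0.0211) and 1.35 ± 0.28 (limma adjusted p = 0.00413), fitted on 3 arrays of each of these groups and the controls because its spot on the other was marked as an outlier. Of this list PDK4 alone was called against control on later days, higher after 7.4 Gy by 1.5 ± 0.31 on day 7 (limma adjusted p = 0.0346) and by 2.22 ± 0.38 on day 12 (limma adjusted p = 0.0441). Of the sodium pump and its FXYD partners, 1 of 8 was called lower at each dose, and the pump subunits ATP1B1 and ATP1B3 were not called. The called gene was FXYD3, which changed by -1.11 ± 0.33 (limma adjusted p = 0.0374) and -1.39 ± 0.33 (limma adjusted p = 0.00588). Of the brush border hydrolases, which release the sugars and amino acids that carriers take up, 1 of 9 was called lower at each dose. That gene was XPNPEP2, an aminopeptidase, at -1.76 ± 0.48 (limma adjusted p = 0.0255) and -2.70 ± 0.48 (limma adjusted p = 0.000765).

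**Figure D5:**
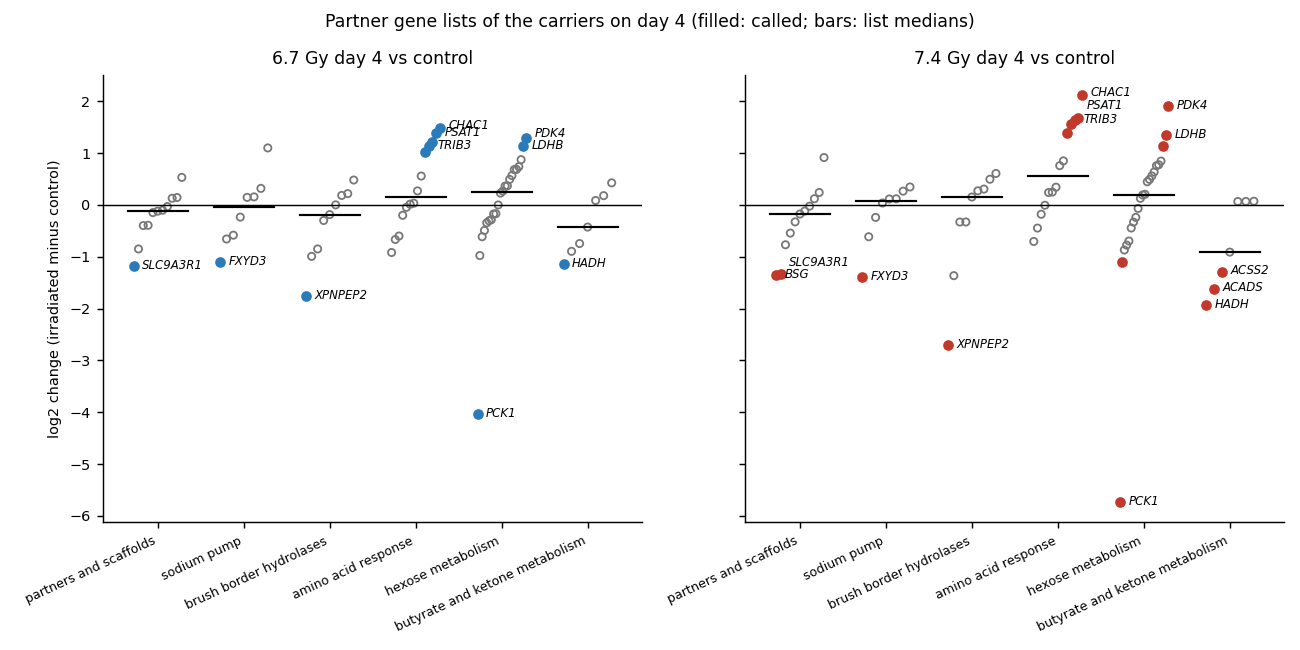
Each point is a gene of 6 lists of carrier partners, placed by list on the x axis and by its log2 change on day 4 against control on the y axis, at 6.7 Gy on the left and 7.4 Gy on the right. Filled points were called and bars are list medians; PCK1 lies lowest, CHAC1 highest, and the 5 called genes of the amino acid response lie together above 1.

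The plot of partner lists shows called genes on both sides of 0 at each dose. The partner genes named above that were called at both doses changed in the same direction at both, and these comparisons share the control arrays. The calls of partner genes were not checked under the alternatives used for the carriers, such as a position block. Markers of other cells in the tissue moved on the same day. The counts below stand beside 2.38% of all named genes called higher and 2.05% lower at 6.7 Gy. At 7.4 Gy these shares were 4.38% and 4.01%. Of 8 markers of small intestinal enterocytes, 0 were called at 6.7 Gy, and at 7.4 Gy MTTP was higher and FABP1 lower. The median log2 change of this list was -0.18 at 6.7 Gy and -0.10 at 7.4 Gy. The summed level, to which the brightest genes add most, was 113.5 to 159.1 in the controls, 64.2 to 98.5 after 6.7 Gy and 43.2 to 94.7 after 7.4 Gy. Of 7 markers of macrophages and neutrophils, 1 was called higher at 6.7 Gy and 3 at 7.4 Gy. Their summed level was 3.51 to 4.78 in the controls and 5.68 to 15.8 after 7.4 Gy. After 6.7 Gy it was 3.56 to 9.54 and overlapped the controls. Of 7 fibroblast markers, 2 were called higher at 7.4 Gy, and of 4 red blood cell markers 2 were called lower at 6.7 Gy and 1 at 7.4 Gy. Of 10 markers of crypt and dividing cells 1 was called higher at 6.7 Gy and 0 at 7.4 Gy, and their summed level, 11.3 to 17.95 in the controls, was 19.7 to 29.2 after 6.7 Gy and 20.6 to 32.1 after 7.4 Gy, with no overlap. At 7.4 Gy, 1 of 8 enteroendocrine markers was called higher and 2 lower, 1 of 6 goblet cell markers lower and 1 of 5 endothelial markers higher. None of 9 T lymphocyte or 6 B and plasma cell markers was called on day 4. The part of these cells in the carrier results was not tested.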

How the data were processed

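Colon RNA of 24 animals was hybridised to single-colour Agilent arrays of 45220 spots, 43803 of them for transcripts. The deposited scanner intensities are processed signals that, per the file headers, were already background-subtracted by the scanner software. The authors' own table of normalized log2 values was deposited as well and holds the same signals after the same scaling, with each probe then centred on its median over the arrays. Each value is the log2 of the processed signal minus the 75th percentile of that array. Spots marked as outliers (24 to 712 per array) were left out, spots of a probe were averaged, and 0 spots were saturated. Probes well above background on at least 2 of 24 arrays were fitted with limma 3.58.1 in R 4.3.3, with 1 mean per group over all arrays, and p-values were adjusted over 38220 probes in each comparison by the Benjamini-Hochberg method. Gene symbols came from the deposited series tables, which hold them for 23674 probes; percentages over all named genes use the brightest probe of each gene. The 75th percentile signal ran from 558.3 to 970.6, and the lowest correlation between arrays of a group was 0.959. The RNA samples were not pooled, per the study's methods. The number of arrays limits the precision.

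The members and the lists were chosen with earlier results of these data known. Genes were named by rule: a panel of carriers of gut epithelium whatever they do; of members called on day 4 with arrays that do not overlap, up to 8 in each direction at 7.4 Gy and up to 4 at 6.7 Gy; up to 4 in each direction of every other comparison; and at most 3 genes of each partner list, those with the largest change at 7.4 Gy on day 4. Alternatives were no fold limit, other filters on dim probes, quantile, median and spike-in scaling, normexp correction with an offset of 50 on the median spot signal, the authors' normalized table, the methods' t-test, only the groups compared, slide, position, scan day and replicate blocks, the median over a gene's probes, and leaving out each array. The fit of 6.7 Gy day 4 arrays in position 1 alone was added after seeing the data. The statistical steps were tested on simulated data. Some genes of the partner lists are not reported here. No sequences are printed.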

Additional observations from a re-analysis of the deposited data

Results flagged for a closer look

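Among the named carriers, 13 of 160 groups of 4 arrays held an array that stood apart from the other 3 by Dixon's test, and chance marks about 1 in 20 groups. In the controls these were the lowest arrays of SLC2A10 (-6.31), SLC2A2 (-7.13) and SLC6A6 (-2.51) and the highest arrays of SLC38A2 (-0.55) and SLC5A6 (2.81). On day 4 after 6.7 Gy they were the highest array of SLC2A13 (-2.73) and the lowest of SLC5A1 (-2.79). On day 4 after 7.4 Gy they were the highest arrays of SLC1A1 (-1.70), SLC29A1 (1.27) and SLC6A14 (-3.67) and the lowest of SLC2A10 (-5.22) and SLC38A1 (0.15). On day 7 after 6.7 Gy the lowest array of SLC36A1 stood at -3.73.

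The change from day 4 passed the test for 13 named carriers. From day 4 to day 7 the log2 difference over both doses was 1.98 for SLC16A1, 2.38 for SLC6A4, -1.19 for SLC28A3, -1.42 for SLC6A20, -1.14 for SLC7A11 and -1.12 for SLC7A8. From day 4 to day 12 it was 2.62 for SLC16A1, 3.03 for SLC6A4, 1.15 for SLC22A5, 1.12 for SLC2A13, 1.04 for SLC6A7, 1.40 for SLC7A4 and 1.08 for SLC7A9. Over the same days it was -1.85 for SLC28A3, -1.09 for SLC2A1, -1.48 for SLC5A1, -2.01 for SLC6A20 and -1.80 for SLC7A11. Day and array position cannot be told apart in these differences.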

How the results depend on the processing

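Of the 36 calls of named carriers over all comparisons, 10 were kept under every alternative that could be computed for them and 0 changed sign, and of 174 results without a call 19 were called under at least 1 alternative. The number of carriers called on day 4 was 9 at each dose. Among 11326 named genes 501 were called at 6.7 Gy and 950 at 7.4 Gy. With normexp the count was 5 carriers at each dose, beside 328 and 602 named genes. With position and scan day blocks together it was 4 carriers at 6.7 Gy and 1 at 7.4 Gy, beside 453 and 235 named genes. The methods' t-test, adjusted, gave 4 at 6.7 Gy. With no fold limit 24 were called at 7.4 Gy. With spike-in scaling 19 were, beside 1266 named genes under that scaling. Against control on day 7 the unadjusted t-test gave 4 at 6.7 Gy and 5 at 7.4 Gy, and the filter of at least 12 arrays gave 1 at 7.4 Gy. On day 12 the unadjusted t-test gave 1 at 6.7 Gy and 1 between the doses. From day 4 to day 7, 26 carriers passed with no fold limit in place of 6. From day 4 to day 12, 26 did in place of 14, and normexp left 4. In that comparison normexp left 526 named genes in place of 877. The causes of these moves were not tested, apart from the fold limit, which is part of the call itself. Leaving out 1 array gave 6 to 8 carriers at 6.7 Gy and 8 to 11 at 7.4 Gy on day 4, 0 at 6.7 Gy and 0 to 2 at 7.4 Gy on day 7, 4 to 9 from day 4 to day 7, and 10 to 15 from day 4 to day 12. Counts over all named genes are not given for these fits, the fits with no fold limit or the adjusted t-test.

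Arrays of different groups that share a replicate number did not deviate together: the correlation of their deviations ran from -0.229 to 0.236. The replicate block gave 9 carriers at 6.7 Gy and 8 at 7.4 Gy on day 4, 6 from day 4 to day 7 and 13 from day 4 to day 12. It called 478, 939, 579 and 920 named genes in these comparisons. Fits with an array position block could be made only for day 4 against control and for the comparisons of doses. Genes near background, such as SLC7A11 and SLC1A1 in the controls, have the least certain size of change.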
